A study of Mus musculus with 2 samples.

Results

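Tfrc, Trf, Fth1, Ftl1, Slc40a1, Slc11a2, Ireb2, Aco1 and Iscu carry iron into the cell, store it, export it, sense it and build it into iron-sulfur clusters. These 9 genes were chosen by symbol, each symbol was matched to 1 gene of the deposited tables, and all 9 were found among 55536 annotated genes. The tissue was gastrocnemius, the large calf muscle, of adult male 5xFAD/CAST mice aged 8 to 10 months from The Jackson Laboratory. 5xFAD is an Alzheimer model in which human transgenes are driven by the neuronal Thy1 promoter, and CAST is a wild-derived inbred strain. Both libraries came from 300 ng of total RNA of this 1 group, so the series holds no control group and no treatment. They are labelled as biological replicates 1 and 2, with separate biosamples under 1 donor entry. Nothing in the labels says that they came from separate animals, and the spread between them may be technical.

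Iron reaches cells as ferric iron bound to transferrin, which binds the transferrin receptor at the cell surface and is taken up into endosomes, where the transporter encoded by Slc11a2 moves the reduced iron to the cytosol. Surplus iron is held inside the hollow shell of ferritin, built of heavy chains that oxidise iron and light chains that help to deposit it, and ferroportin is the exporter of iron from cells. Iron regulatory proteins bind a hairpin in messenger RNAs, the iron-responsive element (IRE). Binding near the start of ferritin and ferroportin messages blocks their translation, and binding in the 3′ untranslated region of the transferrin receptor message protects it from decay. Muscle holds much of its iron in myoglobin and in the mitochondrial respiratory chain, which depends on iron-sulfur clusters.

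The hairpins are shown first, because they set apart the members whose messages carry this element. The pattern searched was a C, 5 bases, the loop CAGTGN and 5 bases that pair with the first 5, with G-T pairs allowed. It was searched on the sense strand of GENCODE M21 transcripts, whose coordinates are on mm10, the build of the deposited tables. Each line gives the 17 bases of the stem and loop with 6 bases on either side, and capitals mark the loop. In the Slc11a2-205 line, whose stem leaves 1 base unpaired, the 3′ side of the stem is 1 base longer and 5 bases follow it.
Fth1-201, 5′ UTR, chr19:9982732-9982760, plus strand: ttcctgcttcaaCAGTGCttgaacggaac
Ftl1-201, 5′ UTR, chr7:45459779-45459807, minus strand: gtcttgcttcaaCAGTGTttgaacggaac
Slc40a1-201, 5′ UTR, chr1:45925465-45925493, minus strand: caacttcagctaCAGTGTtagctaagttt
Tfrc-201, 3′ UTR, chr16:32631219-32631247, plus strand: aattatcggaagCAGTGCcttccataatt
Tfrc-201, 3′ UTR, chr16:32631598-32631626, plus strand: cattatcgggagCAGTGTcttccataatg
Tfrc-201, 3′ UTR, chr16:32631663-32631691, plus strand: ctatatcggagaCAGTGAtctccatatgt
Tfrc-201, 3′ UTR, chr16:32631710-32631738, plus strand: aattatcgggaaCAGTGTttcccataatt
Slc11a2-205, 3′ UTR, chr15:100395153-100395181, minus strand: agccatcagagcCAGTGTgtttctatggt

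The ferritin hairpins differed from each other at 3 of 29 bases and at 1 of the 17 bases of stem and loop. Each lies close to the start of its message, at bases 87 to 115 of the 929 bases of Fth1-201 and at bases 78 to 106 of the 968 bases of Ftl1-201. The ferroportin hairpin, at bases 90 to 118 of Slc40a1-201, differed from that of Fth1 at 16 of 29 bases. The pattern matched Tfrc-201 at 4 places between bases 3315 and 3834 of its 4890, past a coding region that ends at base 2432. An element of another form would be missed, so 4 is a count of matches and may not cover every element. The Slc11a2 match lies in the 3′ UTR at bases 1797 to 1825 of Slc11a2-205, past a coding region that ends at base 1765. It was found only when 1 base on the 3′ side of the stem was allowed to stay unpaired, a search added after the stricter pattern had found no match in any Slc11a2 transcript. The other main form, Slc11a2-201, is spliced to a different last exon and held neither kind of match. No transcript of Trf, Ireb2, Aco1 or Iscu held either kind. Across the annotation the strict pattern was present in 60 of 49055 5′ UTRs (0.122%) and in 202 of 44309 3′ UTRs (0.456%), and the form with an unpaired base in 71 (0.145%) and 345 (0.779%). A match of letters is not a measurement of binding, and none was made here.

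Promoter windows, from 250 bases before to 50 bases after the start, were found in the RefSeq table (GRCm38.p6) for 5 of the 9 genes. Their 7 windows held CAGTGN on either strand in 2 cases, beside 55.8% of all 32851 promoters in the table. None of the 7 held the whole hairpin pattern. Only 50 of all the promoters (0.152%) held it, so its absence shows nothing particular to the members.

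The levels are given in TPM, the deposited unit in which reads are corrected for gene length and each library is scaled to the same sum, so that genes can be compared. Fth1 stood far above the rest, Iscu and Ftl1 came next, and the sensors Ireb2 and Aco1 were lowest. All 9 genes were above 1 TPM in both libraries, a level that 10068 of 22015 nuclear protein-coding genes reached. Of the 9, 6 were at or above 10 TPM in both, which 19.0% of the 22015 genes reached. The median of the 9 was 18.8 TPM in each library, but it fell on a different gene in each. It was Slc40a1 in replicate 1 (18.84 TPM) and Slc11a2 in replicate 2 (18.78 TPM). The TPM of those genes moved in opposite directions between the libraries, so the like medians do not show stable levels. Their summed level was 1259 TPM in replicate 1 and 1214 TPM in replicate 2. Since the tissue was bulk muscle, fewer cells of a type and less RNA per cell cannot be told apart.

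**Figure D1:**
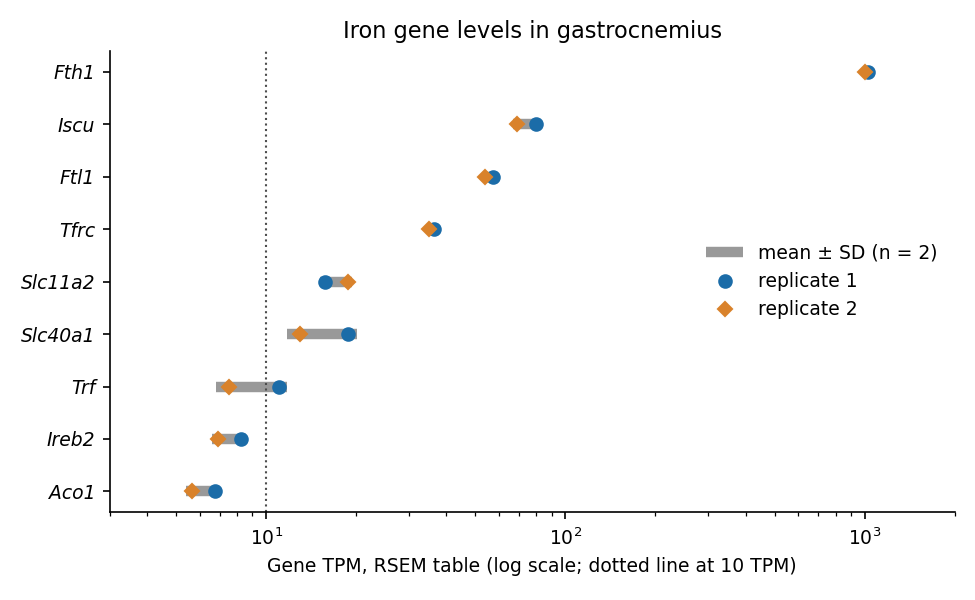
Level of each of the 9 iron genes in gene TPM on a log axis, with replicate 1 as circles, replicate 2 as diamonds and a grey bar for the mean ± SD of both libraries. Fth1 lies near 1000 TPM and every other gene under 80 TPM; the pairs Slc11a2 and Slc40a1, and Trf and Ireb2, overlap.

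Among the uptake genes, the receptor stood above its ligand and above the transporter. Tfrc, the transferrin receptor, lies on chromosome 16 from 32608920 to 32632794 and was at 36.5 TPM in replicate 1 and 35.1 TPM in replicate 2 (35.8 ± 0.98, SD, n = 2). Its rank by mean TPM was 1488 among the nuclear protein-coding genes. It is the member with the second smallest relative spread in TPM after Fth1. Slc11a2, the divalent metal transporter also called DMT1, is on chromosome 15 from 100387898 to 100425072. It was at 15.7 TPM in replicate 1 and 18.8 TPM in replicate 2, and was the only member whose TPM was higher in replicate 2. Trf, the plasma iron carrier transferrin, is on chromosome 9 from 103204001 to 103230444. It was at 11.0 TPM in replicate 1 and 7.50 TPM in replicate 2, on opposite sides of the 10 TPM line. The ratio of Tfrc to Trf was therefore 3.32 in replicate 1 and 4.69 in replicate 2, as Trf differed more than Tfrc.

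Transferrin is known as a product of the liver, and the hepatocyte markers were near 0 in this muscle. None of 7 (Alb, Apoa1, Ttr, Serpina1a, Hamp, Fga, Apoh) reached 1 TPM, their sum was 0.34 TPM in replicate 1 and 0.45 TPM in replicate 2, and Apoa1, Fga and Hamp had no counts. Erythroid cells carry much transferrin receptor, and the erythroid list was led by globin. Its 9 markers summed to 370.0 and 299.8 TPM, and Epb42 had no counts in the gene table. Of the 9, 5 were at or above 1 TPM in both libraries, beside 10068 of 22015 nuclear protein-coding genes. The part of erythroid cells in the Tfrc level was not tested.

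Storage genes took most of the RNA of the set. Fth1, the ferritin heavy chain, lies on chromosome 19 from 9980598 to 9985098 and was at 1025 TPM in replicate 1 and 1004 TPM in replicate 2 (1015 ± 14.7). That is rank 36 of 22015 nuclear protein-coding genes. Ftl1, the ferritin light chain, is on chromosome 7 from 45457944 to 45459884 and was at 57.3 and 53.8 TPM (55.5 ± 2.51), rank 961. Together both chains held 86.0% of the summed TPM of the 9 genes in replicate 1 and 87.2% in replicate 2. By the deposited assignment the heavy chain was 18.3 ± 0.56 times as abundant as the light chain. That ratio depends on how reads were divided between Ftl1 and its near copies, described next.

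More light-chain reads were assigned to a second gene than to Ftl1. Ftl1-ps1, on chromosome 13 from 74399694 to 74407346, is named as a pseudogene but annotated as protein coding. It had 2367 and 2418 expected counts, beside 1257 and 1249 for Ftl1, and its TPM was 1.95 ± 0.03 times that of Ftl1. Its transcript Ftl1-ps1-202 aligned to Ftl1-201 over 910 bases with 906 identical (99.6%). Among the 552 coding bases only 2 differed. They are shown because reads that cover neither of them cannot separate the coding parts of the genes; the changes are G468A and G504A, given as the Ftl1 base, its position from the A of the start codon and the Ftl1-ps1 base, which is in capitals.
Ftl1-201 around coding base 468: ctccgcagggtggcGgggccacaaccagc
Ftl1-ps1-202 at the same place: ctccgcagggtggcAgggccacaaccagc
Ftl1-201 around coding base 504: ggcgcgccccagggGtctctgggcgagta
Ftl1-ps1-202 at the same place: ggcgcgccccagggAtctctgggcgagta

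The hairpin of Ftl1 occurs in Ftl1-ps1-202 with all 29 bases the same, at chr13:74406428-74406456 on the plus strand. Of 869 windows of 100 bases in Ftl1-201, 525 (60.4%) also occur in another gene, 515 of them in Ftl1-ps1. For Fth1-201 it was 8 of 830 windows (0.96%). The posterior SD of the count, the deposited measure of how uncertain the division of reads is, was 39.4 and 37.6 counts for Ftl1 (3.14% and 3.01%) and about 1 count for Fth1 (0.96 and 1.09). With Ftl1 and Ftl1-ps1 summed, the heavy chain was 6.20 ± 0.12 times the light chain in TPM.

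Of 14 further genes whose symbol starts with Fth or Ftl, 11 had no counts in either library. Beside Ftl1-ps1, counts went to Ftl2-ps (153 and 147) and Fth-ps2 (1 and 6). Among genes with such symbols, those other than Fth1 and Ftl1 held 9.81 ± 0.11% of the counts (SD, n = 2). They held 67.0 ± 0.38% of the counts under Ftl symbols and 0.016 ± 0.016% under Fth symbols. Copies under other names are not in these shares. Of these, Gm15590 holds 168 of the windows of Ftl1-201 and Gm6977 holds 8 of those of Fth1-201. Ftl2-ps is where the quantifications differed most: its 153 and 147 counts in the gene table were 2 and 0 in the kallisto-layout table, while Ftl1-ps1 had 2183 and 2228 there. Which CAST bases fall in these genes was not examined.

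**Figure D2:**
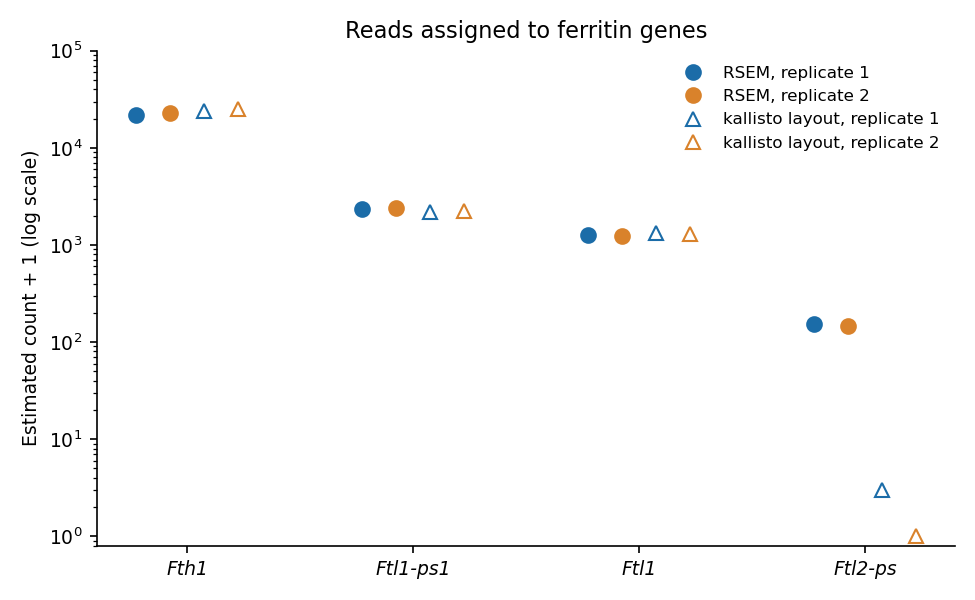
Estimated counts plus 1, on a log axis, for the 4 ferritin genes with the most counts, by library and by deposited quantification (circles, RSEM gene table; triangles, kallisto-layout table). Ftl1-ps1 lies above Ftl1 in all 4 columns, and Ftl2-ps drops from 153 and 147 to 2 and 0.

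Slc40a1, which encodes ferroportin, lies on chromosome 1 from 45908068 to 45926523 and was at 18.8 TPM in replicate 1 and 12.9 TPM in replicate 2 (15.9 ± 4.17). It had the largest SD relative to its mean apart from Trf, and its range overlapped that of Slc11a2. Macrophages that recycle red cells are known for high ferroportin. Of 12 macrophage markers 8 were at or above 1 TPM in both libraries, as were 10068 of 22015 nuclear protein-coding genes. The 12 summed to 45.0 TPM in replicate 1 and 39.1 TPM in replicate 2. None of the 12 was at 0 in both libraries of the gene table, but Vsig4 had 2 and 0 counts and Spic 0 and 1, and their part in the Slc40a1 level was not tested.

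The RNA-binding sensors were the lowest members. Ireb2, iron regulatory protein 2, which is controlled by its breakdown, is on chromosome 9 from 54863789 to 54912530. It was at 8.26 TPM in replicate 1 and 6.88 TPM in replicate 2, and its range overlapped that of Trf. Aco1, iron regulatory protein 1, is on chromosome 4 from 40143081 to 40198338 and doubles as cytosolic aconitase when it holds an iron-sulfur cluster. It was at 6.75 and 5.64 TPM. By RSEM TPM Ireb2 was 1.22 ± 0.003 times Aco1, with nearly the same ratio in each library although both genes were lower in replicate 2. The kallisto-layout table did not keep that ratio. There Ireb2 was at 7.64 and 6.44 TPM and Aco1 at 6.27 and 5.98 TPM, closer together in replicate 2.

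Iscu, the scaffold on which mitochondria assemble iron-sulfur clusters and whose mutation causes an inherited myopathy in people, was the second most abundant member by the deposited assignment of reads. It lies on chromosome 5 from 113772748 to 113778288 and was at 79.5 TPM in replicate 1 and 69.0 TPM in replicate 2 (74.3 ± 7.41), rank 719. Those values did not overlap with the ranges of Fth1 above or Ftl1 below, though Ftl1 and Ftl1-ps1 summed would stand above Iscu. Of 858 windows of 100 bases in Iscu-201, 72 also occur in Gm16437, but its posterior SD was only 0.95 and 1.34 counts.

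The next comparison was between the replicates, which shows how far a single library fixes each level. Ratios were taken from the expected counts, scaled with TMM, and carry 95% intervals that cover counting error only. With 1 library on each side there is no test. None of the 9 genes differed by 1.2-fold. Among all 9741 genes whose counts averaged at least 100, 5.09% were at least 1.2-fold higher in replicate 2 and 6.72% at least 1.2-fold lower. At 1.5-fold in either direction it was 0 of 9 members and 1.22% of all genes. At those shares about 1 of 9 genes would lie past 1.2-fold, so the count of 0 says nothing particular about the members. The median log2 ratio of replicate 2 to replicate 1 was 0.04 for the members and 0.00 for all genes.

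Slc11a2 came nearest to the bound, with 935 and 1082 counts and a log2 ratio of 0.26 (interval 0.13 to 0.39). It passed 1.2-fold with ERCC spike-in totals (log2 0.35) and narrowly, with no count minimum for the TMM factors (0.26). Fth1 had 21699 and 22590 counts, and its many reads gave the narrowest interval, 0.08 to 0.14 around 0.11. Those genes are the members whose interval excluded 0. Tfrc (3932 and 3894 counts, 0.04), Ftl1 (0.04), Ireb2 (1129 and 1054 counts, -0.05), Iscu (1734 and 1614, -0.05) and Aco1 (622 and 572, -0.07) all had intervals that included 0. So did Slc40a1, with 1089 and 966 counts and a ratio of -0.12 (interval -0.25 to 0.01). Trf, with 324 and 333 counts, had the widest interval, -0.13 to 0.32 around 0.09. Signs at this size depend on the scaling: 5 members were above 0 with TMM, 3 with library totals and 8 with ERCC totals. Over all genes those scalings gave 496 higher and 655 lower at 1.2-fold with TMM, 314 and 1015 with library totals, and 1115 and 327 with ERCC totals.

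Counts and TPM gave different replicate ratios for Trf and Slc40a1. On the TPM scale Trf had a log2 ratio of -0.55 and Slc40a1 of -0.54, so that both were more than 1.2-fold lower in replicate 2, where their counts gave 0.09 and -0.12. The gene length that enters TPM had moved between the libraries, from 1253 to 1735 bases for Trf and from 2361 to 2849 bases for Slc40a1. That length is an average over transcripts weighted by their abundance. Short transcripts with few reads differed most. Trf-209, a retained-intron form of 433 bases, had 55.5 counts and 6.52 TPM in replicate 1 and 21.5 counts and 2.38 TPM in replicate 2, while the full message Trf-201 was at 4.18 and 4.14 TPM. Slc40a1-207, of 263 bases, went from 4.67 to 1.65 TPM on 19.5 and 7.3 counts, while Slc40a1-201 was at 12.5 and 10.7 TPM. On the TPM scale the median log2 ratio was -0.13 over all genes and -0.20 over the members. Of all genes, 23.4% were at least 1.2-fold lower in replicate 2 on that scale and 3.82% at least 1.2-fold higher.

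**Figure D3:**
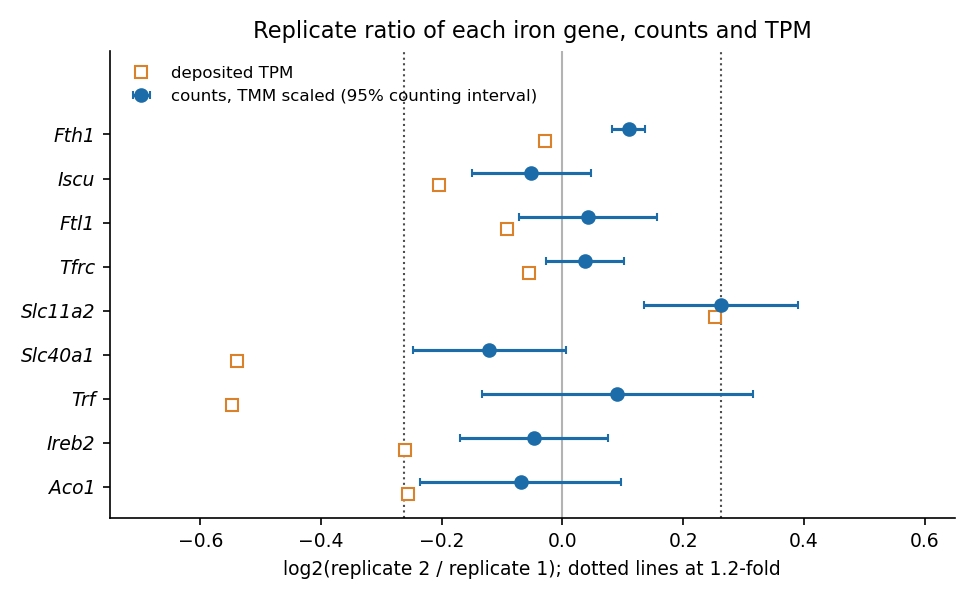
The log2 ratio of replicate 2 to replicate 1 for each gene, from TMM-scaled counts (circles with 95% counting intervals) and from deposited TPM (open squares), with dotted lines at 1.2-fold. All circles lie inside the lines, Slc11a2 next to the upper one; the squares of Trf and Slc40a1 lie at -0.55 and -0.54.

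Trf also shares most of its sequence with an overlapping gene. Gm20425, on the same strand and annotated as protein coding, contains 1912 of the 2472 windows of 100 bases of Trf-201. It was given 228.3 counts in replicate 1 and 116.2 in replicate 2, with posterior SDs of 36.2 and 33.7. The posterior SD of Trf was 25.5 and 21.7 counts, or 7.87% and 6.53%, the highest share among the 9 genes. Tfrc, Aco1, Ireb2, Slc40a1 and the main Slc11a2 forms had no window shared with another gene.

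Each library had been quantified a second time in the layout of the program kallisto. Of the 9 genes, 0 differed by 1.5-fold in the same direction in both libraries, where 3.29% of the 9741 genes did. Slc11a2 stood farthest apart, at 21.4 and 27.7 TPM in the kallisto-layout table, 1.36 and 1.47 times the values of the gene table. Tfrc was at 30.9 and 29.6 TPM, 0.85 and 0.84 times the gene table. The remaining members lay between 0.80 and 1.23 times in each library.

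Most members were dominated by 1 transcript. Fth1-201 held 99.0% and 99.3% of Fth1 TPM in the RSEM table, Aco1-201 95.8% and 100%, Ireb2-201 93.2% and 98.5%, Iscu-201 96.0% and 95.7%, and Ftl1-201 95.6% and 91.8%. The kallisto-layout table spread some of these. There Iscu-201 fell to 77.9% and 68.9%, with Iscu-205, a nonsense-mediated decay form of 489 bases, at 10.4% and 24.6%. Fth1-206, of 333 bases, had 640.7 counts and 166.3 TPM in replicate 1 of that table and none in replicate 2, while the RSEM table gave it 0 in both. The RSEM table gave Iscu-205 0.88% and 0%, so the values of these short forms differed between the tables.

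Tfrc and Slc11a2 had transcripts with and without the hairpins. Tfrc-201, the only coding Tfrc transcript with the 4 matched hairpins, held 82.4% and 77.8% of Tfrc TPM and 93.7% and 91.3% of its counts. Tfrc-202 ends before that 3′ UTR and had 13.9% and 19.7% of the TPM. The kallisto-layout table gave Tfrc-202 only 5.42% and 6.14% of the TPM, and Tfrc-201 92.1% and 92.7%. For Slc11a2, the hairpin form Slc11a2-205 held 54.1% of gene counts in replicate 1 and 57.2% in replicate 2, and Slc11a2-201, which lacks it, 39.6% and 29.6%. In TPM, which corrects for length, they were nearer: 4.59 and 5.28 for Slc11a2-205, 4.96 and 4.03 for Slc11a2-201, so that their order changed between the libraries of the RSEM table. In the kallisto-layout table Slc11a2-205 was the higher in both, at 4.43 and 4.88 TPM beside 4.10 and 3.81 TPM for Slc11a2-201. Slc11a2 had 5 transcripts with at least 10% of its TPM in some library and table, the most of any member. The partial forms among them included Slc11a2-207, of 389 bases (3.70 and 1.57 TPM), and Slc11a2-202, of 709 bases (0 and 4.81 TPM).

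For the ferritins and ferroportin, nearly all reads were on hairpin-bearing forms. Forms that hold the hairpin in an annotated 5′ UTR had 99.3 ± 0.20% of Fth1 counts, 96.2 ± 0.87% of Ftl1 counts and 97.3 ± 1.64% of Slc40a1 counts, the last being Slc40a1-201 alone. Noncoding retained-intron forms that also hold it (Fth1-208, Slc40a1-202 and Slc40a1-208) are not in those shares. In the kallisto-layout table the share of Slc40a1-201, counted the same way, was 95.9 ± 1.82%. There Slc40a1-205, which starts at an upstream exon and lacks the hairpin, took 31.7% and 9.16% of TPM on 25.7 and 5.1 counts. The RSEM table gave it 0. By RSEM TPM, which corrects for length, the hairpin forms held only 66.45% and 82.77% of Slc40a1. The mean shares on that scale were 99.2% for Fth1 and 94.9% for Ftl1. By kallisto-layout TPM the Fth1 share was 85.67% in replicate 1 and 99.84% in replicate 2.

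**Figure D4:**
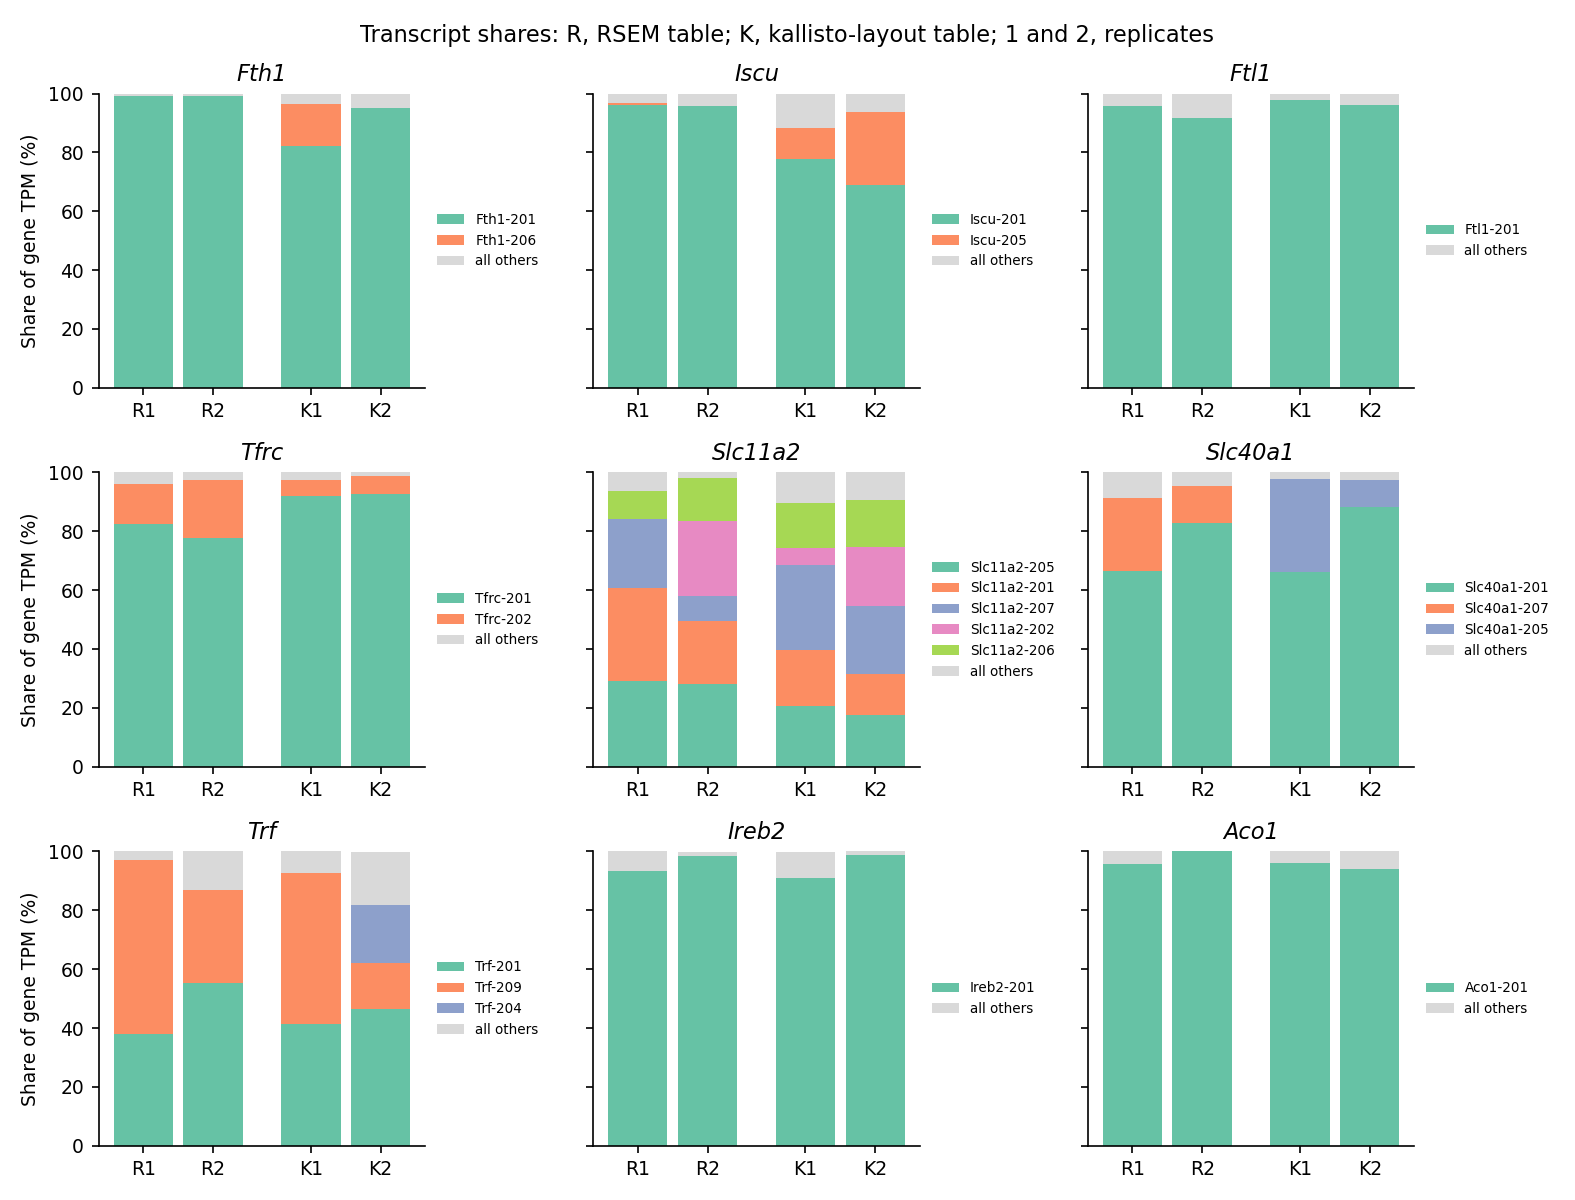
Share of each gene's TPM by transcript, in percent, for replicates 1 and 2 of the RSEM table (R1, R2) and of the kallisto-layout table (K1, K2); colours mark transcripts with at least 10% in any column and grey all others. Aco1, Ireb2 and Ftl1 are nearly 1 colour throughout, whereas Slc11a2 and Trf are split among several transcripts.

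The wider iron genes give the setting. Across 6 lists, which hold 87 genes counted once and include the 9, 39 (44.8%) were at or above 10 TPM in both libraries and 5 had no counts: Tfr2, Steap1, Ftmt, Hamp and Hamp2. For these and the list counts that follow, the share of the 22015 nuclear protein-coding genes at or above 10 TPM in both libraries was 19.0%. Mitochondrial cluster assembly was broadly present, with 14 of 21 genes at or above 10 TPM. Its most abundant genes were Ndufab1, the mitochondrial acyl carrier protein, at 260.9 ± 14.6 TPM, the chaperone Hspa9 at 133.2 ± 8.68 TPM and Bola3 at 98.6 ± 1.29 TPM, all above Iscu. In the cytosolic assembly list 6 of 11 reached 10 TPM, led by Glrx3 (52.9 ± 1.63 TPM), Ciao2a (24.4 ± 3.39) and Ciao1 (20.7 ± 1.39).

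Storage, chaperone and export genes had 6 of 9 at or above 10 TPM. Fth1 was followed there by Pcbp2, a chaperone that hands iron to ferritin, at 161.2 ± 15.7 TPM, and Ftl1. Uptake had 2 of 16 at that level, Tfrc and Slc11a2. In the sensing and hepcidin list 5 of 13 reached it, and Ireb2 and Aco1 did not. Hfe2, the symbol in these tables for the BMP co-receptor hemojuvelin, led that list at 309.8 ± 16.8 TPM, followed by Epas1 (38.4 ± 5.77 TPM) and Fbxl5 (18.7 and 15.2 TPM), the iron-sensing subunit that directs IRP2 to breakdown. Heme genes had 6 of 17, led by Alas1, the first enzyme of heme synthesis, at 84.4 ± 6.36 TPM, Fech (68.6 ± 0.98 TPM) and Tmem14c (27.1 ± 0.66 TPM). Among the 8 genes whose messages are known for an IRE, 7 were at or above 10 TPM in both libraries.

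**Figure D5:**
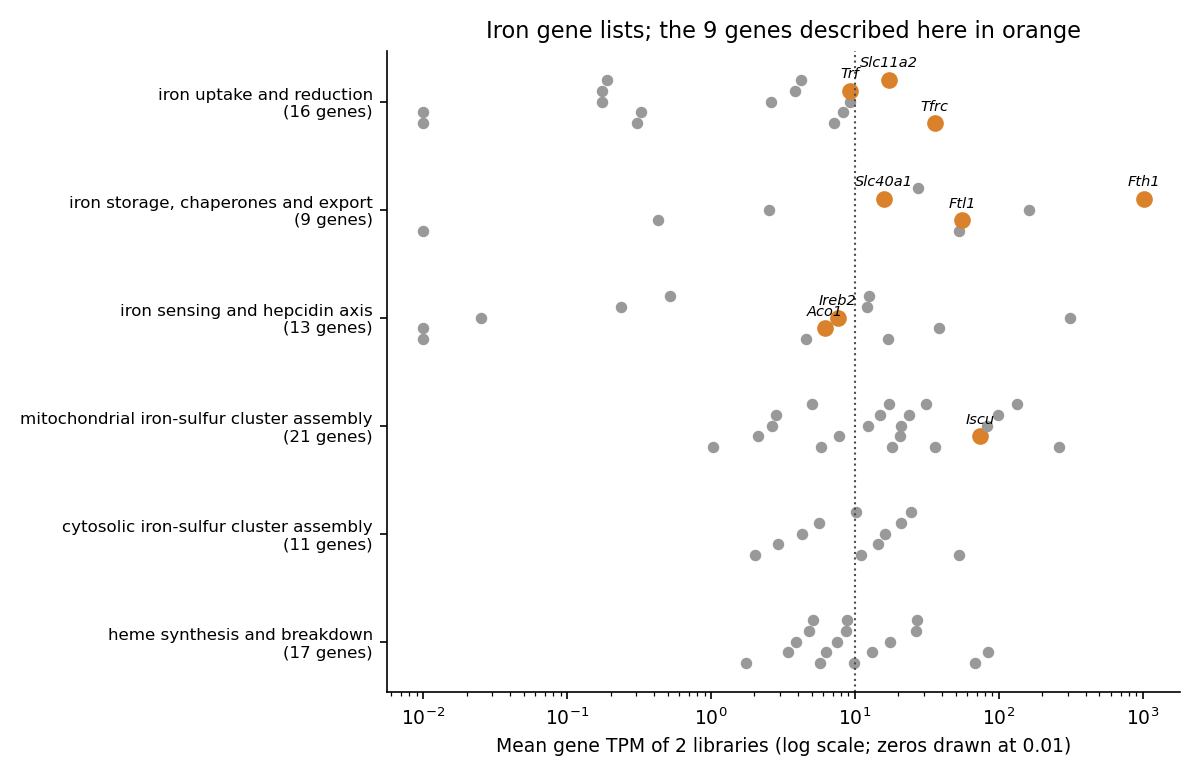
Mean gene TPM of both libraries, on a log axis, for the genes of 6 iron lists; each point is a gene, the 9 described here are labelled and in orange, the dotted line is 10 TPM and genes at 0 are drawn at 0.01. Fth1 is the highest point, Iscu sits in the upper part of its list and Ireb2 and Aco1 sit left of the line.

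Between the replicates, 70 of the 87 genes averaged at least 100 counts, and 3 were at least 1.2-fold higher in replicate 2 and 5 lower, none of them a member. Beside the shares over all genes, 5.09% and 6.72%, these counts show nothing particular to the iron genes. All but Bmp6 are named here after their values were seen. Higher were the heme-related transporters Abcb6 (log2 ratio 0.43) and Flvcr1 (0.42) and the assembly factor Iba57 (0.27). Lower were Bmp6 (-0.59), Hmox1, the inducible heme oxygenase (-0.47), Ciapin1 (-0.43), Ndor1 (-0.34) and the ferritin receptor Scara5 (-0.28). Bmp6, which induces hepcidin, was past 1.5-fold, with 408 and 261 counts. The median log2 ratio of the 70 was -0.01. Between the quantifications 1 of the 70 differed by 1.5-fold, Bola2, at 1.65 and 1.57 times the gene table, where 3.29% of all genes did.

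The libraries held 35163970 and 35412240 expected counts in genes. Muscle fibre markers were high, with 10 of 10 at or above 10 TPM and sums of 93923 and 89964 TPM. Most vessel and fat markers had lower scaled counts in replicate 2, with exceptions. Of 9 endothelial markers with enough counts, 5 were at least 1.2-fold lower (all 10 summed to 82.3 and 61.6 TPM), and of 6 adipocyte markers 5 were (7 summed to 216.8 and 156.6 TPM), where 6.72% of all genes were. Cfd, the adipocyte marker with the second highest TPM, had a log2 ratio of 0.26 (interval 0.10 to 0.42), and the endothelial markers Vwf (0.11) and Cldn5 (0.18) were also above 0. Beside them stood Bmp6 at -0.59 and Slc40a1 at -0.12, and the part of those cells in either value was not tested.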

How the data were processed

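Gene and transcript tables of 2 libraries (1 group) were used. Per the file headers, the deposited tables give expected counts, TPM and a posterior SD of the count in the columns of RSEM, and estimated counts and TPM in the columns of kallisto; per the deposited notes the build was mm10 with GENCODE M21. Neither aligner nor program versions were found in the labels or files. The library kit was directional, per the labels' protocols; no source used here says whether counting used strand. All gene identifiers and symbols matched M21, and 86 genes without an entry in the kallisto-layout tables were summed as 0 there. ERCC, phiX and other rows outside the annotation were left out of library sizes.

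Expected counts were rounded to whole numbers. Replicate ratios used TMM factors of edgeR 4.0.16 (R 4.3.3) over genes averaging at least 10 counts, a prior of 0.5 counts and an exact binomial (Clopper-Pearson) 95% interval on both counts from scipy 1.17.1; DESeq2 1.42.0 size factors were an alternative. The ratio calculation was also run on simulated counts with planted folds. Those counts held counting error only, so the run checks the calculation and not the spread between real libraries. Intervals cover counting error only. Folds used genes averaging at least 100 counts; TPM ratios added 0.1 TPM, which understates changes of low genes.

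Named are the members, the 3 genes of highest mean TPM in each list, genes past 1.5-fold between replicates or quantifications averaging at least 100 counts, the 5 ferritin-named genes beside Fth1 and Ftl1 of highest count where they had counts, and transcripts with at least 10% of the gene TPM in any library and table. Members and lists were chosen with earlier results of these data known. Sequences come from GENCODE M21 transcripts and RefSeq promoters. A few genes of the lists are not reported here by name.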

Additional observations from a re-analysis of the deposited data

How the results depend on the processing

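With 2 libraries of 1 group no spread beyond their difference can be measured, and no replicate ratio could be formed without either library. The median member level of 18.8 TPM became 24.5 TPM in the kallisto-layout table. It was 42.0 TPM when TPM was rescaled over nuclear protein-coding genes alone, which raises every gene. Single libraries gave 18.84 TPM (Slc40a1, replicate 1) and 18.78 TPM (Slc11a2, replicate 2), with a different gene at the median. The count at or above 10 TPM was 6 and ranged from 4 (minimum of 20 TPM) to 9 (minimum of 5 TPM, or rescaled TPM). The ferritin share of 86.6% was 70.8% by expected counts, which are not corrected for length. The median log2 replicate ratio of 0.04 was 0.13 with ERCC totals, -0.20 with deposited TPM and between -0.02 and 0.04 with the other settings. From 0 members past 1.2-fold the count became 1 with ERCC totals (Slc11a2), 1 with no count minimum for TMM (Slc11a2) and 2 with deposited TPM (Trf and Slc40a1). The 8 of 70 iron genes past 1.2-fold became 18 of 70 with deposited TPM. They became 13 of 79 with a minimum mean count of 10 and 1 of 40 with a minimum of 500. The share over all genes was not taken at those other minimums. The median leading transcript share of 92.5% was 87.5% in the kallisto-layout table. Among genes with Fth or Ftl symbols, the share of counts outside Fth1 and Ftl1, 9.81%, was 7.88% by kallisto-layout counts and 10.2% by TPM. At 1.2-fold, deposited TPM gave 372 genes higher (3.82%) and 2278 lower (23.4%) among all 9741 genes. With ERCC totals those shares were 11.4% and 3.36%. Beside such shares the counts of members and iron genes show nothing particular to them. Where no construction is named, the cause was not tested.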
